A study of Mus musculus with 18 samples.

Results

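Cytochrome P450 enzymes were followed in mouse kidney as 42 probe sets for 36 genes, of 12488 probe sets and 8251 named genes on the array. The members are all probe sets whose single gene symbol begins with Cyp and a number, without Cyp11a1, Cyp21a1, Cyp24a1 and Cyp27b1. The table holds 54 such Cyp probe sets, of which 7 carry several symbols and 5 belong to the genes left out. The members fall into 9 families, and families 2 and 4 hold 18 and 7 of the probe sets. Total RNA came from kidneys of C57 mice, 1 array per mouse. There were 6 control and 6 Aprt KO mice at 7 days of age, and 3 control and 3 Aprt KO mice at 1 month. The series text gives the genotypes as Aprt+/+ and Aprt-/-, and it calls the ages newborn and adult where the labels give days and months. KO and control mice came as 9 littermate pairs of like sex. At 7 days there were 3 female and 3 male pairs, and at 1 month 1 female pair (pair 7) and 2 male pairs (pairs 8 and 9).

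P450 enzymes are haem proteins, mostly of the endoplasmic reticulum, that put an oxygen atom into a substrate with electrons passed on by the reductase Por and by cytochrome b5. Families 1 to 3 are best known for drugs and other foreign compounds, family 4 for fatty acids and eicosanoids, and the higher families for sterols, bile acids, steroids and retinoids. In the kidney most of them are made in the proximal tubule, and several mouse genes are known to differ between the sexes. Aprt is the adenine salvage enzyme, and in its absence an insoluble oxidised purine forms kidney crystals.

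Levels are array signals on a linear scale, and no probe set's level can be set against another's. Of the members, 17 probe sets for 16 genes reached the signal minimum of 118.6 (mean over all arrays) and were tested on log2(signal + 29) among 7464 probe sets, and 25 did not. A member was called at a limma adjusted p under 0.05. Aprt signal lay on the other genotype's side in 4 of 18 arrays, so the libraries are named by their labels: 7-day controls 1 and 2, the array labelled 7-day KO 4 and the array labelled 1-month KO 1. The 7-day arrays among these read 66.3, 51.3 and 135 for Aprt. The other 7-day controls read 138 to 148 and the other 7-day KO mice 41.9 to 58.1. The array labelled 1-month KO 1 read 86.5, just across the midpoint of 82.9 between the 1-month group medians. The highest signal on the arrays of pair 4 was 10767 in the control and 10167 in the KO, against 25718 to 51453 on the others. Of 18 proximal tubule markers 13 were on the array, and all 13 reached the signal minimum, with none at 0. In whole kidney, fewer cells of a type and less RNA per cell cannot be told apart.

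Age was the comparison in which most P450 members changed. In controls, 6 of the 17 tested probe sets rose from 7 days to 1 month and 2 fell, where 13.7% of all tested probe sets rose and 24.6% fell. In the Aprt KO mice 6 rose and 2 fell, where 14% of all rose and 23.8% fell. Cyp2e1, Cyp4b1, Cyp51, Cyp4a10 and Cyp2d26 rose and Cyp2s1 and Cyp1b1 fell in both genotypes, while Cyp4a12b was called in the controls and Cyp4a14 in the KO mice. The median log2 change of the 17 was 0.52 in controls and 0.29 in KO mice, against -0.11 and -0.12 over all tested probe sets. With quantile normalization the medians over all were 0.02 and 0.01. The sex terms place each group midway between females and males, so these age changes weight the sexes equally.

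**Figure D1:**
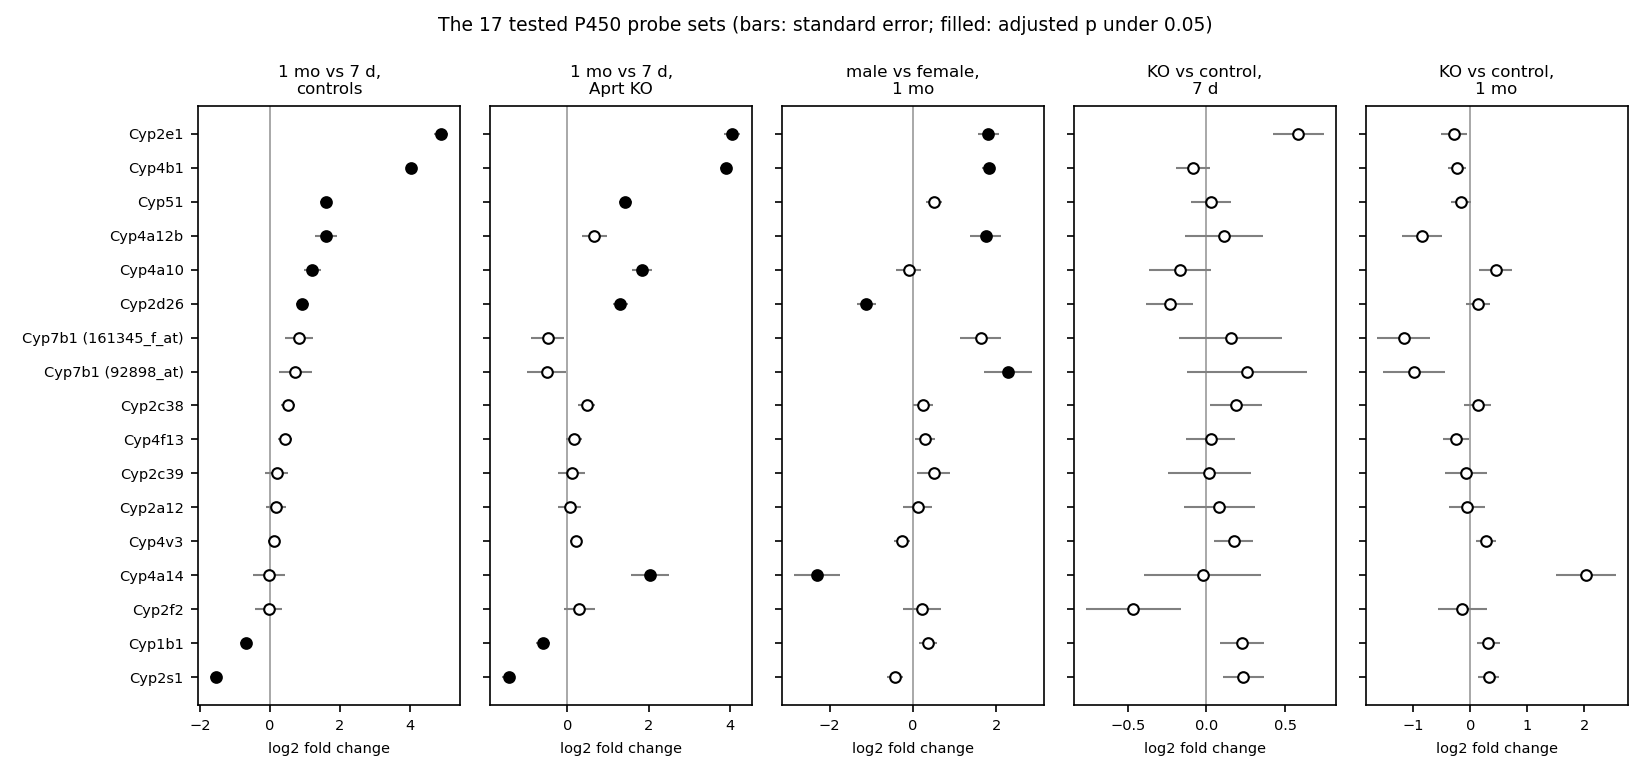
Log2 fold changes (horizontal axes) of the 17 tested P450 probe sets (rows) in 5 comparisons; points are limma estimates, bars are standard errors and filled points have an adjusted p under 0.05. Filled points lie in both age panels and in the panel of males against females at 1 month, and none lies in the panels of KO against control.

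Promoter sequences are shown for the 6 genes called in both age comparisons that the RefSeq promoter table (GRCm38.p6) holds; 30 of the 36 member genes are in it. Each line gives the 250 bases before the gene's start, 5′ to 3′ on the gene's strand. Capitals mark matches on either strand to the TATA box TATAAA, the hepatocyte nuclear factor 1 letters GTTAAT, the nuclear receptor letters AGGTCA, the Ah receptor core GCGTG and the sterol regulatory (SREBP) letters ATCACNNCA; none of the marked matches overlap.
Cyp2e1, chr7:140763569-140763818, plus strand: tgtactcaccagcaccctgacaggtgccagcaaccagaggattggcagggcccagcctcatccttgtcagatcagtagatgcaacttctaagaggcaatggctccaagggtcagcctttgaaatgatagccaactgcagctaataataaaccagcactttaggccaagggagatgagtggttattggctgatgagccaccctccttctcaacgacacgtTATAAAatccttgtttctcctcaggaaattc
Cyp4b1, chr4:115647722-115647971, minus strand: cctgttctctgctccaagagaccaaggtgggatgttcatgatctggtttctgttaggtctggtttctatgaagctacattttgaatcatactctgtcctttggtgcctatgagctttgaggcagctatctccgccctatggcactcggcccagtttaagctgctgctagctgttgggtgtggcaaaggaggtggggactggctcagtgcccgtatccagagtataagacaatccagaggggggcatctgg
Cyp2d26, chr15:82794246-82794495, minus strand: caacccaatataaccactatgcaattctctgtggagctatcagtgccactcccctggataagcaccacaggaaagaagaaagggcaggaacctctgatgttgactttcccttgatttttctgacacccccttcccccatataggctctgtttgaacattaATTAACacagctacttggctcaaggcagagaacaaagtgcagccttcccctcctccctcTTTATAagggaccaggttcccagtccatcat
Cyp51, chr5:4104698-4104947, minus strand: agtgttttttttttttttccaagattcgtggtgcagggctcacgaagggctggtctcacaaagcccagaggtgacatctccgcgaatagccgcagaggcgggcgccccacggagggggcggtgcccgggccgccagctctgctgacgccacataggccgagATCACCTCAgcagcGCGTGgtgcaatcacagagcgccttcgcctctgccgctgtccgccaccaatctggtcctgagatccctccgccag
Cyp2s1, chr7:25816526-25816775, minus strand: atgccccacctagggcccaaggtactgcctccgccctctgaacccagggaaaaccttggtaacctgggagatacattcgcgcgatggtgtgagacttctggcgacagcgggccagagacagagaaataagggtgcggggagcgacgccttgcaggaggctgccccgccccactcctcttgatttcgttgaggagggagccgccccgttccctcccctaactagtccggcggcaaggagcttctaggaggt
Cyp1b1, chr17:79715062-79715311, minus strand: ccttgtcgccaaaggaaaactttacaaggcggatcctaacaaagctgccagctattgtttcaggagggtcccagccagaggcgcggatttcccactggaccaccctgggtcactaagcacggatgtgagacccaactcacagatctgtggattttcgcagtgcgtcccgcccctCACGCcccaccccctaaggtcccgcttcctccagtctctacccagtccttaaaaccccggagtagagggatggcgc

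Positions are counted back from -1, the base before the start. Cyp2e1 had TATAAA at -31, and Cyp2d26 had it at -31 and GTTAAT at -90, both on the opposite strand. The Cyp51 window held ATCACNNCA at -89 and GCGTG at -75, and the Cyp1b1 window GCGTG at -76 on the opposite strand. No match to these letters was found in the windows of Cyp4b1 and Cyp2s1, and AGGTCA was in none of the 6. Among 32851 promoters of this length TATAAA was in 12.4%, GTTAAT in 6.43%, AGGTCA in 14%, GCGTG in 28.2% and ATCACNNCA in 2.3%. The Cyp51, Cyp2s1 and Cyp1b1 windows, at 62.8%, 62% and 58% GC, lay above the median promoter at 52.4%, and those of Cyp2e1, Cyp4b1 and Cyp2d26, at 48.8%, 51.6% and 47.6%, lay below it.

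Cyp2e1, which oxidises ethanol and other small molecules, had the largest rise of the members in both genotypes. Its signal at 7 days was 211 at the lowest, 326 at the median and 389 at the highest in controls, and 311, 496 and 573 in KO mice. At 1 month the control female read 6004 and the males 15757 and 18242, and the KO female read 3693 and the males 15758 and 16566. The ages did not overlap, and within each 1-month group the female was the lowest. How many of all probe sets separate the ages in this way, here or for the genes below, was not counted. The mean signal of Cyp2e1 was 43.7 times that at 7 days in controls and 25.6 times in KO mice. These ratios of plain group means are not balanced for sex, and males outnumber females at 1 month but not at 7 days. The log2 changes, which weight the sexes equally, were 4.90 (SE 0.20, limma adjusted p 7.42e-12) and 4.04 (SE 0.20, limma adjusted p 8.49e-11). Among the other xenobiotic members of family 2, Cyp2d26 read 2130, 2734 and 3411 (lowest, median, highest) in 7-day controls and 1589, 2468 and 2932 in 7-day KO mice. At 1 month its females were the highest arrays, at 8620 in the control and 7551 in the KO. Its males read 3488 and 3193 in the controls, where the second lies inside the 7-day control range, and 3393 and 4976 in the KO mice. The log2 change of Cyp2d26 was 0.93 (SE 0.19, limma adjusted p 0.00068) in controls and 1.30 (limma adjusted p 2.61e-05) in KO mice. Without the female control at 1 month the control change was 0.72 (limma adjusted p 0.0575), and without pair 7 it was 0.29 (limma adjusted p 0.319).

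Cyp4b1, a family 4 enzyme that acts on medium-chain fatty acids and on plant toxins, followed Cyp2e1 in size. The probe set of Cyp4b1 is of the family type (suffix f), whose probes can match related transcripts. Its lowest, median and highest signals were 432, 550 and 652 in 7-day controls and 369, 543 and 575 in 7-day KO mice. The 1-month controls read 5144 in the female and 16694 and 17379 in the males, and the 1-month KO mice 4041, 14897 and 15337. Every 1-month array lay above every 7-day array, and the females were the lowest of the 1-month arrays. The mean signal, again not balanced for sex, was 23.9 and 22.2 times that at 7 days. The sex-balanced log2 changes were 4.03 (SE 0.14, limma adjusted p 9.18e-13) in controls and 3.88 (limma adjusted p 1.73e-12) in KO mice. Cyp4a10, one of the fatty acid omega-hydroxylases, had 7-day signals of 891, 1152 and 1482 in controls and 722, 1096 and 1222 in KO mice. Its 1-month values were 3219, 1640 and 3613 in the control female and males of pairs 8 and 9, and 3335, 2933 and 4943 in their KO littermates. No 7-day array reached the 1-month values. Its log2 changes were 1.22 (SE 0.25, limma adjusted p 0.000775) in controls and 1.83 (limma adjusted p 1.38e-05) in KO mice, and without the 1-month female control the former was 0.98 (limma adjusted p 0.0568).

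Cyp51, the lanosterol demethylase of cholesterol synthesis, rose without overlap of the ages. The 7-day signals were 148, 174 and 205 in controls and 155, 177 and 212 in KO mice. At 1 month the controls read 509, 586 and 834 and the KO mice 424, 542 and 764, each in the order female, male of pair 8, male of pair 9. In both genotypes the male of pair 9 was the highest. The log2 changes were 1.61 (SE 0.16, limma adjusted p 3.49e-07) and 1.42 (limma adjusted p 1.57e-06).

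Both members that fell are enzymes of extrahepatic tissues. Cyp2s1, an epithelial P450 linked to retinoids and prostaglandins, had 7-day signals of 624, 724 and 1036 in controls and 675, 929 and 1006 in KO mice. At 1 month it read 319, 194 and 195 in the control female and males, and 329, 258 and 305 in the KO female and males. All 1-month arrays were below all 7-day arrays, and the log2 changes were -1.54 (SE 0.16, limma adjusted p 8e-07) and -1.44 (limma adjusted p 1.7e-06). Cyp1b1, which oxidises oestradiol and retinol, had 7-day signals of 364, 483 and 593 in controls and 450, 574 and 656 in KO mice. Its 1-month values of 216, 311 and 393 in controls and 362, 471 and 319 in KO mice overlapped those at 7 days at their upper end. The log2 changes were -0.68 (SE 0.17, limma adjusted p 0.00428) and -0.59 (limma adjusted p 0.0114). The control call was lost without the 1-month female control (-0.46, limma adjusted p 0.191) and without pair 7 (-0.42, limma adjusted p 0.108). The KO call was lost without the 1-month KO male of pair 9 (-0.42, limma adjusted p 0.085), without pair 9 (limma adjusted p 0.076) and without pair 7 (limma adjusted p 0.0554). It was also lost without the 4 arrays with Aprt signal against the label (limma adjusted p 0.0559) and with quantile normalization (-0.42, limma adjusted p 0.0656).

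**Figure D2:**
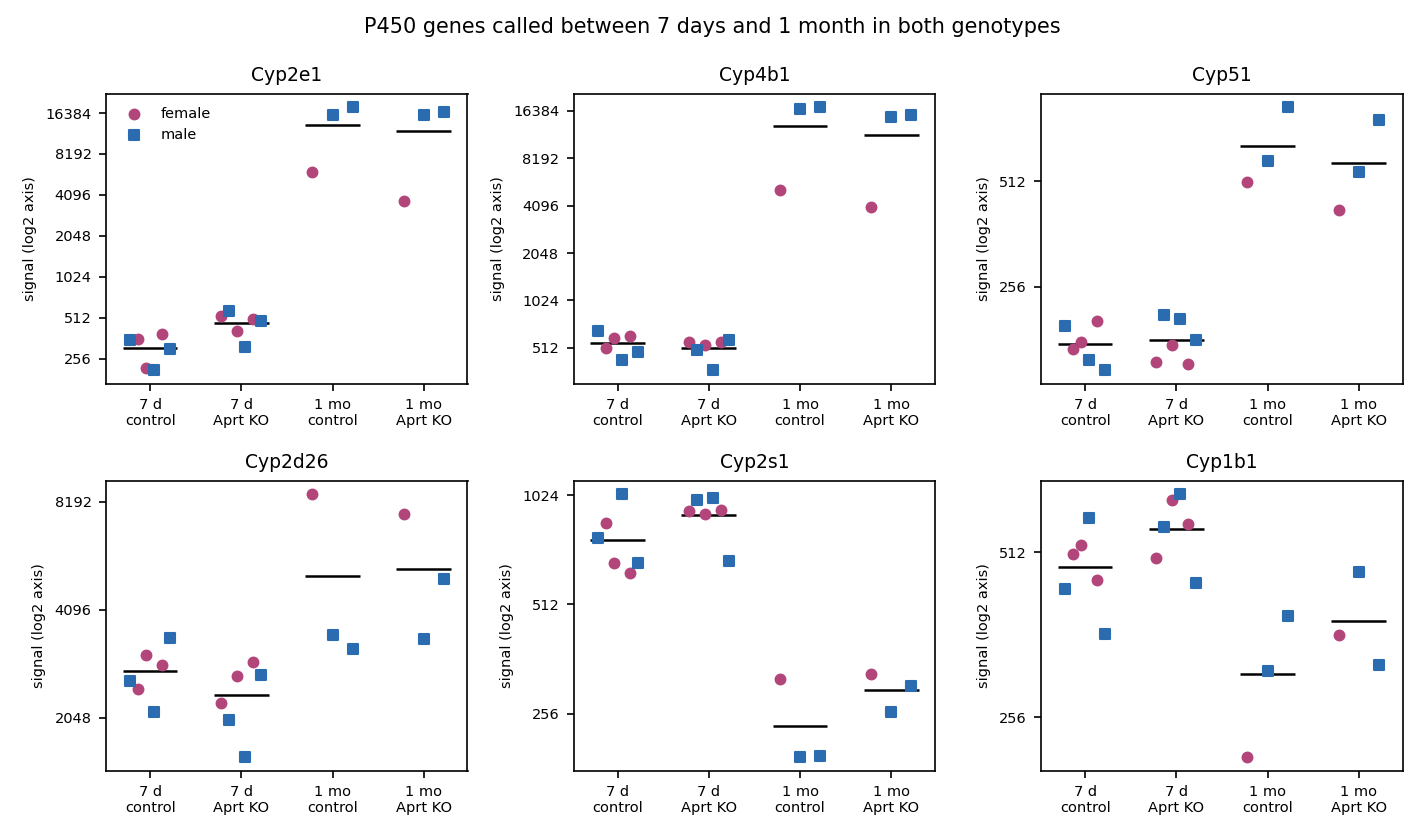
Signal (log2 vertical axis) of 6 P450 genes on each of the 18 arrays by age and genotype; circles are females, squares are males and lines are the arithmetic means of each group. Cyp2e1 and Cyp4b1 rise at 1 month, with the females lowest, and Cyp2s1 falls below all its 7-day values.

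The remaining family 2 members and the remaining family 4 members outside the Cyp4a cluster were not called by age. Cyp2c38 and Cyp2c39, near-identical to other Cyp2c genes, had log2 changes of 0.52 (limma adjusted p 0.0543) and 0.20 (limma adjusted p 0.68) in controls. Cyp4f13, of the leukotriene and fatty acid hydroxylases, had 0.43 (limma adjusted p 0.0903), and Cyp4v3 had 0.11 (limma adjusted p 0.626). Values for Cyp2a12 and Cyp2f2 were 0.19 (limma adjusted p 0.649) and -0.03 (limma adjusted p 0.959).

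Beside the age changes, proximal tubule markers moved as well: 8 of 13 rose in controls and 10 of 13 in KO mice, with median log2 changes of 0.87 and 1.14. Their summed signal was 48833 to 84370 in 7-day controls and 37129 to 67255 in 7-day KO mice, and 99948 to 129230 and 101420 to 124080 at 1 month. Liver markers were dim, with 3 of 13 on the array reaching the minimum and none at 0. The summed signal of the 13 was 866.5 to 1296 in 7-day controls, 1156 to 1704 in 7-day KO mice, 1668 to 2074 in 1-month controls and 1367 to 1987 in 1-month KO mice. The part of either marker list in the P450 changes was not tested, and an array batch that coincides with age cannot be told apart from it.

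Between males and females 6 members differed at 1 month. At 7 days, 0 of the 17 members were called by limma and 0 had an unadjusted p under 0.05, where 0.0536% of all tested probe sets were called. At 1 month 4 members were higher and 2 lower in males, where 2% of all were higher and 0.911% lower. Without the signal minimum, 3 of all 42 members were higher and 1 lower, where 1.03% and 0.386% of all were. Cyp4b1, Cyp2e1, Cyp4a12b and a Cyp7b1 probe set were higher in males, and Cyp2d26 and Cyp4a14 were higher in females. The female arrays are both from pair 7 and the males from pairs 8 and 9, so sex and litter cannot be told apart at 1 month.

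Cyp4b1 averaged 4592 ± 780 in the 2 females and 16077 ± 1157 in the 4 males (SD), a log2 difference of 1.81 (SE 0.16, limma adjusted p 4.99e-06). Cyp2e1 averaged 4849 ± 1634 in females and 16581 ± 1171 in males, a log2 difference of 1.81 (SE 0.24, limma adjusted p 0.000335). For both genes the sexes did not overlap at 1 month. How many of all tested probe sets separate in this way, here or for the genes below, was not counted. Under a random block for the pair these 2 members were the ones still called (limma adjusted p 0.000329 and 0.00815), where 0.415% of all tested probe sets were. The sex difference of Cyp4b1 was larger at 1 month than at 7 days by 1.98 (SE 0.20, limma adjusted p 2.71e-05) and that of Cyp2e1 by 1.93 (limma adjusted p 0.00316). These were the 2 members called in the sex-by-age comparison, both higher, where 1.1% of all tested probe sets were. With the random block Cyp4b1 stayed called (limma adjusted p 0.00161, where 0.0536% of all were) and Cyp2e1 did not (limma adjusted p 0.0549), nor did Cyp2e1 without the 1-month KO female (limma adjusted p 0.0535) or without the 4 arrays with Aprt signal against the label (1.51, limma adjusted p 0.0835).

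Cyp2d26 averaged 8085 ± 756 in the females and 3763 ± 818 in the males, a log2 difference of -1.12 (SE 0.22, limma adjusted p 0.00962), with no overlap. Cyp4a12b, one of the omega-hydroxylases, read 422 in the control female and 389 in the KO female. Its males read 4276 and 1096 in the controls and 1171 and 731 in the KO mice, all above the females. The log2 difference was 1.74 (SE 0.37, limma adjusted p 0.0149). Cyp7b1, the oxysterol hydroxylase that also clears androgen metabolites, has 2 tested probe sets, a family-type one (suffix f, whose probes can match related transcripts) and a gene-specific one. The gene-specific one differed by 2.28 (SE 0.57, limma adjusted p 0.0378) and the family-type one by 1.62 (SE 0.49, limma adjusted p 0.0855). The former reached the signal minimum only through the 1-month males, at a mean of 415 against 34.5 in the 1-month females, and without the minimum it was not called (limma adjusted p 0.0612). Cyp4a14 was the other way, at 3466 and 3791 in the control and KO females and between 109 and 3488 in the males, a log2 difference of -2.30 (SE 0.56, limma adjusted p 0.0317). Without the 1-month female control the calls of Cyp2d26, Cyp4a12b, Cyp7b1 and Cyp4a14 were lost, with log2 differences of -0.87, 1.19, 1.28 and -0.88. A random block for the pair lost them too (limma adjusted p 0.137, 0.205, 0.322 and 0.361), and the calls of Cyp7b1 and Cyp4a14 were also lost without either mouse of pair 8. Cyp4a14 was not called without the signal minimum (limma adjusted p 0.0512) or with quantile normalization (limma adjusted p 0.0554), nor Cyp7b1 with the pseudocount at the 40th percentile (limma adjusted p 0.0503). Leaving out single 7-day pairs also ended these 2 calls, with limma adjusted p up to 0.0537 for Cyp4a14 and 0.0635 for Cyp7b1.

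Genotype was not called for any member at either age. At 7 days 0 of the 17 were called by limma, where 2.73% of all tested probe sets were, and 1 had an unadjusted p under 0.05. At 1 month 0 were called, where 0.201% of all were, and 3 had an unadjusted p under 0.05. The genotype-by-age difference had 0 calls, where 0.375% of all were called, and 4 unadjusted p under 0.05. The median log2 change of the 17 was 0.08 at 7 days and -0.08 at 1 month, against -0.01 and 0.00 over all tested probe sets. With the litter pair as a block, which takes out differences between litters, Cyp2e1 at 7 days and Cyp4a14 and Cyp7b1 at 1 month were called.

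Cyp2e1 at 7 days was higher in the KO mouse of every pair. The control and KO littermates read 352 and 573 in pair 1, 358 and 527 in pair 2, and 219 and 409 in pair 3. They read 211 and 311 in pair 4, 389 and 505 in pair 5, and 301 and 486 in pair 6. The groups overlapped, since the KO of pair 4 lay below 3 controls, while every pair ran the same way. The labels, not the Aprt signal, set the genotype in these pairs. Control and KO littermates had like Aprt signals in pairs 1 (66.3 and 55.4), 2 (51.3 and 53.8) and 4 (138 and 135). They differed in pairs 3 (148 and 58.1), 5 (141 and 41.9) and 6 (148 and 56.5). KO mice were higher by a log2 difference of 0.58 (SE 0.16, limma adjusted p 0.0649 without a litter term). A fixed block for the pair gave a limma adjusted p of 0.00114, where 7.56% of all tested probe sets were called, and a random one 0.000932, where 7.93% were. It was also called without the 7-day KO mouse 4 (0.69, limma adjusted p 0.0226), without pair 4 (0.60, limma adjusted p 0.0398) and without the 4 arrays whose Aprt signal was on the other side (0.80, limma adjusted p 0.0244). At 1 month the female and pair 9 were lower in the KO for Cyp2e1, and the males of pair 8 read 15757 and 15758. The genotype effect at 1 month was below that at 7 days by a log2 difference of -0.86 (limma adjusted p 0.401). Either block gave it a limma adjusted p of 0.0143, where 1.37% of all were called with the fixed and 2.18% with the random one.

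Beside this, 7 of 7 tested myeloid markers and 7 of 8 tubular injury markers rose in the 7-day KO mice. The summed signal of the 12 myeloid markers was 2267 to 3994 in controls and 6392 to 10995 in KO mice, with none at 0. Of the proximal tubule markers 0 of 13 were called by limma at 7 days, with a median log2 change of -0.28, and 0 of 3 tested liver markers, with a median of 0.43. The part of these cells in the Cyp2e1 difference was not tested. The other 2 members with the smallest p at 7 days were Cyp2s1, with a log2 difference of 0.23 (limma adjusted p 0.696), and Cyp1b1, with 0.22 (limma adjusted p 0.772), each higher in the KO of 5 of 6 pairs.

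The Cyp4a genes Cyp4a12b, Cyp4a14 and Cyp4a10 lie close together on chromosome 4, with Cyp4b1 nearby, and their 1-month values spread widely between litters. Cyp4a14 read 3466 in the control female and 109 and 482 in the control males of pairs 8 and 9, against 3791, 1196 and 3488 in their KO littermates. The KO was higher in 3 of 3 pairs, by little in the females and severalfold in both male pairs, and the groups overlapped because of the control female. At 7 days the signals were 506, 861 and 988 in controls and 552, 806 and 1285 in KO mice, with the KO higher in 3 of 6 pairs. The 1-month log2 difference was 2.02 (SE 0.52, limma adjusted p 0.195). It was called with a fixed pair block (limma adjusted p 0.034, where 1.22% of all were) and with a random one (0.01, where 1.78% were). Leaving out either or both mice of pair 7, the female pair, also gave a call (2.97, limma adjusted p 0.041). The sex term takes up a female left alone, so these leave-outs are all the same comparison, that of the males. Without the 4 arrays with Aprt signal against the label, again the males alone, the difference was not called (2.97, limma adjusted p 0.0868). The value was 1.21 without the control male of pair 8 and 1.32 without the KO male of pair 9. The array labelled 1-month KO 1, one of those with Aprt signal against its label, is the KO of pair 7. Against 7 days the 1-month KO mice were higher by 2.03 (SE 0.46, limma adjusted p 0.00205) and the controls by -0.01 (limma adjusted p 0.985). The difference between these was 2.04 (limma adjusted p 0.388), with 0.07 under the fixed block, 0.0323 under the random block and 0.0499 without pair 7.

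The Cyp4a14 difference was also fitted apart by sex at 1 month, a split made after the data were seen. The log2 difference was 2.97 in males and 0.13 in females. The male value repeats the comparison of the males given above, so its call there is not a separate result. There is 1 female per genotype, whose KO array is one of those with Aprt signal against the label, and there are 2 males. Whether the genotype difference depends on sex cannot be judged from so few mice, and no such dependence is claimed. Cyp4a10, next to Cyp4a14, was higher in the KO of 3 of 3 pairs at 1 month by 0.44 (SE 0.28, limma adjusted p 1). Its probe set is of a type that can cross-hybridise with Cyp4a31 and Cyp4a32. Beside these 1-month differences, 2 of 8 tested tubular injury markers rose in the KO mice, Lcn2 by 1.62 (limma adjusted p 0.00873) and Krt19 by 1.26 (limma adjusted p 0.0139). The summed signal of the 9 on the array was 3830 to 4678 in controls and 5383 to 6108 in KO mice, and that of the 12 myeloid markers 2280 to 3031 and 3012 to 4076, with none at 0. Their part in the P450 differences was not tested.

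Cyp4a12b was not called for genotype at 1 month in any setting tried, and Cyp7b1 was called with the litter blocks in 1 of its 2 probe sets. At 1 month Cyp4a12b read 422, 4276 and 1096 in the control female and males and 389, 1171 and 731 in their KO littermates, lower in 3 of 3 pairs, with overlapping groups. The log2 difference was -0.84 (SE 0.35, limma adjusted p 0.919), with 0.17 under the fixed and 0.126 under the random block. Without the control male of pair 8, which read 4276, it was -0.18, and without the control male of pair 9 it was -1.29. From 7 days to 1 month it rose in controls by 1.61 (SE 0.31, limma adjusted p 0.000471), and in KO mice the value was 0.65 (limma adjusted p 0.107). The difference between the genotypes in this was -0.95 (limma adjusted p 0.915). The family-type Cyp7b1 probe set read 88.7, 1127 and 283 in the control female and males and 74.3, 374 and 61.4 in the KO mice, lower in 3 of 3 pairs. Its log2 difference was -1.16 (SE 0.46, limma adjusted p 0.825), called with a fixed pair block (limma adjusted p 0.034) and a random one (0.0441). Without the control male of pair 8 it was -0.48 and without the KO male of pair 9 -0.41. The gene-specific Cyp7b1 probe set read 26.7, 984 and 261 in controls and 42.2, 372 and 45.4 in KO mice, lower in 2 of 3 pairs. It was called with neither block, at a log2 difference of -0.98 (limma adjusted p 0.297 fixed and 0.286 random). At 7 days the family-type probe set was higher in the KO of 6 of 6 pairs, by 0.15, and the gene-specific one in 4 of 6, by 0.26 (limma adjusted p 0.999 for both). The genotype-by-age difference of the family-type one was -1.32 (limma adjusted p 0.838), with 0.0475 under the fixed and 0.0603 under the random block.

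**Figure D3:**
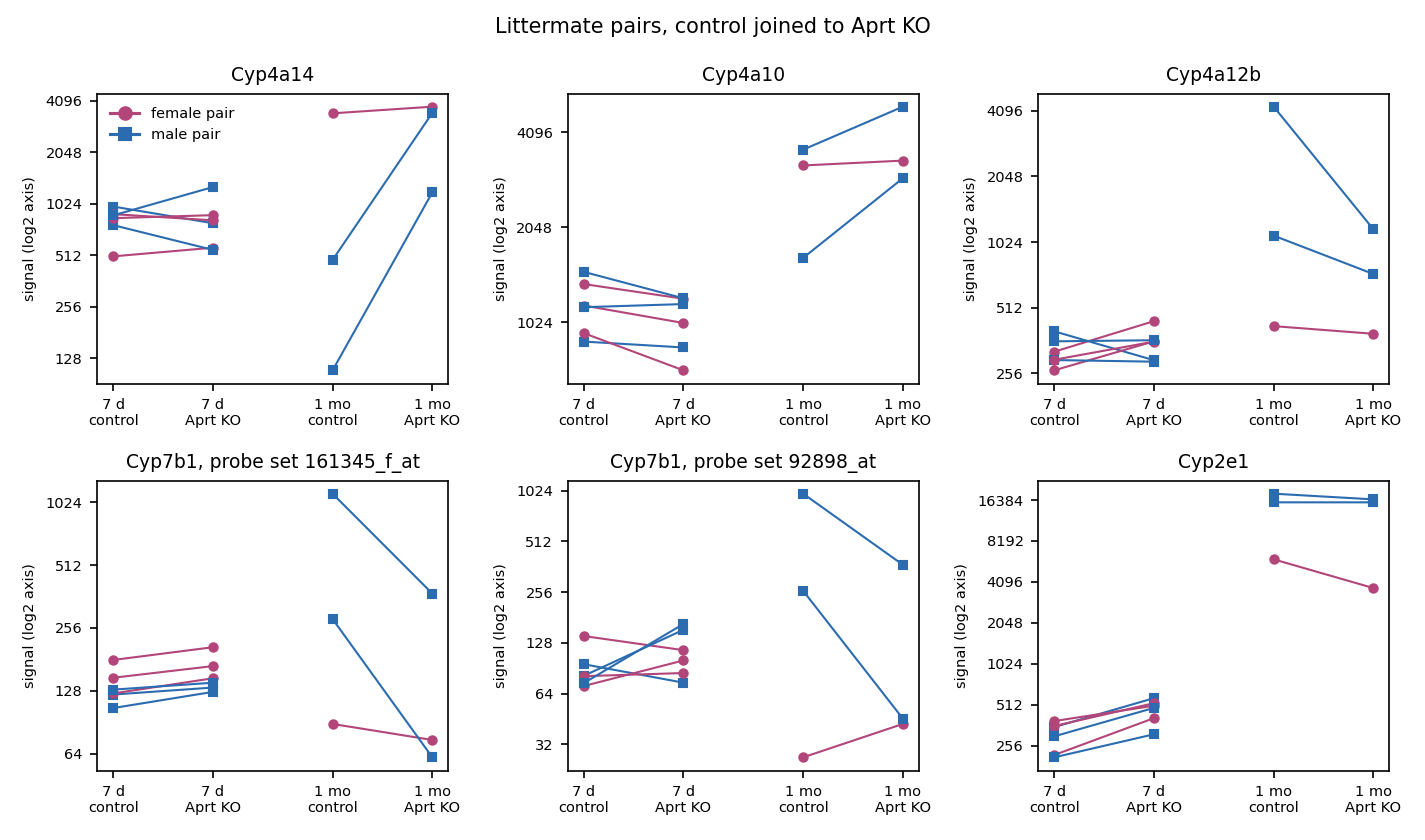
Signal (log2 vertical axis) of 6 P450 probe sets in the 9 litter pairs, each line joining the control to its Aprt KO littermate; circles are female pairs, squares male pairs. At 7 days all 6 Cyp2e1 lines rise, and at 1 month both male lines of Cyp4a14 rise while the male lines of Cyp4a12b and of both Cyp7b1 probe sets fall.

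Cyp2f2, the lung club cell enzyme that activates naphthalene, varied between 7-day arrays without a call for genotype (log2 difference -0.46, limma adjusted p 0.807). It read 192, 361 and 269 in 7-day controls 1, 2 and 6 and 331 in 7-day KO 1, and 54.0 to 125 in the other 8. The same 4 arrays were the high ones for the adrenal gene Cyp11a1, at 534, 445, 442 and 466, against 9.15 to 24.8 in the other 7-day arrays. The summed signal of the 10 adrenal markers on the array was 5006 to 12608 in 7-day controls and 5020 to 11373 in 7-day KO mice, with none at 0. At 1 month Cyp11a1 was 688 and 287 in KO males and 98.8 in the control male of pair 8, while Cyp2f2 stayed between 141 and 214 in all 6 arrays. The part of adrenal RNA in the Cyp2f2 signal was not tested. Cyp17a1, a steroid hydroxylase of the gonads, was dim in every group, with means of 6.09 to 32.4 over its 2 probe sets.

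**Figure D4:**
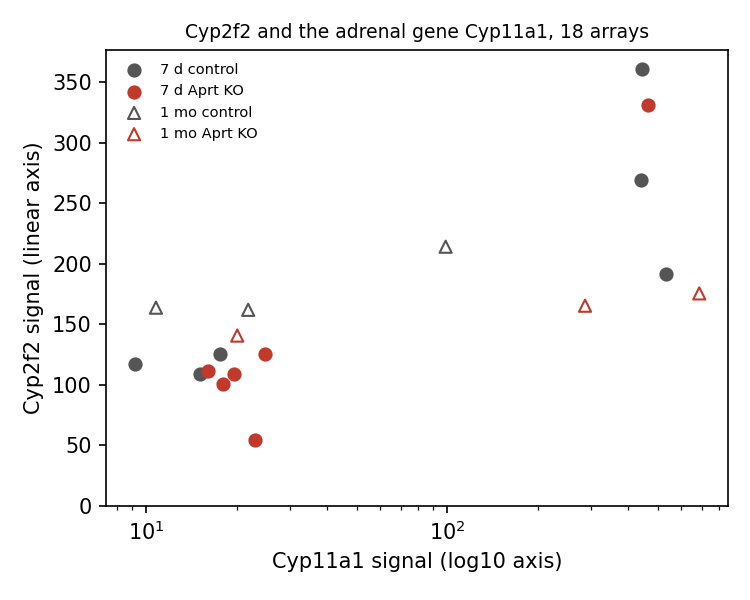
Cyp2f2 signal (linear vertical axis) against Cyp11a1 signal (log10 horizontal axis) on the 18 arrays; circles are 7 days, triangles 1 month, grey controls and red Aprt KO. The 4 circles with high Cyp11a1 are the 4 highest at 7 days for Cyp2f2, and the 1-month triangles lie between 141 and 214 at any Cyp11a1 level.

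Below the minimum were 25 member probe sets, 22 of which had every group mean below it and 18 of which were below it on every array. For 20 genes no probe set reached it. They include the aryl hydrocarbon-induced Cyp1a1 and Cyp1a2, the Cyp2b genes, of which Cyp2b10 is known as inducible by phenobarbital, all 4 Cyp3a genes, the bile acid enzymes Cyp7a1 and Cyp8b1, and Cyp26a1, which clears retinoic acid. Cyp3a13, named for family 3, had means of 101.5 and 105.6 in 7-day controls and KO mice and 65.9 and 70.3 at 1 month. Family 8 and family 26 have 1 member each: Cyp8b1 had group means of 27.2 to 37.6 and Cyp26a1 of 57.8 to 74.1. Single arrays stood out in places; Cyp1a2, chosen after its values were seen, read 198 in the KO male of pair 8 and 14.9 to 76.9 on the other arrays.

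In 3 dim members a 1-month group mean was above the minimum. Cyp2j5, a renal arachidonate epoxygenase, lay just below the minimum at a mean of 118.2. It averaged 49.5 ± 13.0 in controls and 43.1 ± 11.4 in KO mice at 7 days (SD, n = 6), and 256 ± 74.9 and 268 ± 97.0 at 1 month (SD, n = 3). Its lowest 1-month array, at 174, was above its highest 7-day array, at 70.5. Cyp2d9, a male-biased steroid hydroxylase of mouse liver, read 117, 564 and 124 in the 1-month control female and males and 54.7, 531 and 211 in the KO mice, and no more than 90.0 at 7 days. The KO female lay among the 7-day values. Without the signal minimum both were called for age: Cyp2j5 by 1.72 in controls (limma adjusted p 3.64e-06) and 1.89 in KO mice (1.27e-06), and Cyp2d9 by 1.69 (0.00516) and 1.53 (0.0101). In that setting 8 of all 42 members rose and 2 fell in each genotype, where 8.12% and 8.32% of all probe sets rose and 15.6% and 15.4% fell, and the median log2 change of the 42 was 0.10 in controls and 0.11 in KO mice. Cyp2b10 averaged 85.6 and 99.6 at 7 days and 134.9 and 135.8 at 1 month in controls and KO mice. A member can reach the minimum through the group where it is high, so counts over the 17 do not describe the family as a whole.

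Genes that serve the P450 enzymes were counted by age in 6 lists, to be read against 13.7% of all tested probe sets that rose and 24.6% that fell in controls, and 14% and 23.8% in KO mice. Of 17 electron transfer and haem genes, 8 rose and 1 fell in each genotype. Cytochrome b5 type b (Cyb5b) rose by 1.06 on the log2 scale and Cyb5a by 1.41 in controls, and haem oxygenase Hmox1, which breaks haem down, fell by 1.01 on the log2 scale. Of 16 nuclear receptors and transcription factors of P450 genes, 6 rose and 1 fell in controls and 6 rose and 3 fell in KO mice. The liver X receptor Nr1h3 rose by 1.83, the vitamin D receptor Vdr by 1.29 and the bile acid receptor Nr1h4 by 1.24 in controls, and the Ah receptor Ahr had -0.91. One of these genes was called for genotype at 7 days, Cebpb, which rose by 0.74 (limma adjusted p 0.0348).

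Among 14 arachidonate and eicosanoid genes, 3 rose and 3 fell in each genotype. Soluble epoxide hydrolase Ephx2, which hydrolyses P450 epoxides, rose by 2.60 in controls, Pter rose by 1.13, and the phospholipase Pla2g4a fell by 1.56. Of 21 other drug and xenobiotic enzymes, 18 rose and 1 fell in controls and 17 rose and 0 fell in KO mice, with the methyltransferase Inmt at 4.98, the hydroxysteroid dehydrogenase Akr1c21 at 4.69 and the sulfotransferase Sult1d1 at 2.30 in controls. Between the sexes at 1 month 6 of these 21 were higher in males, Akr1c21 by 2.71 and Inmt by 2.66, where 2% of all tested probe sets were. Here too sex and litter cannot be told apart, and with the random block the calls over all probe sets fell from 217 to 31. Of 17 sterol and bile acid synthesis genes, 6 rose and 1 fell in controls and 4 rose and 0 fell in KO mice, with Amacr at 1.55, Hsd17b4 at 0.88 and Ebp at 0.71 in controls. Of 23 omega-oxidation and PPAR target genes, 12 rose and 3 fell in controls and 15 rose and 2 fell in KO mice, with the fatty acid transporter Slc27a2 at 1.82, Ehhadh at 1.86 and Vnn1 at 1.52 in controls. The median log2 changes of these 6 lists in controls were 0.26, 0.31, 0.01, 0.97, 0.33 and 0.43 in the order given, against -0.11 over all tested probe sets. In the fit without a litter block, no gene of the 6 lists other than Cebpb was called for genotype at either age. The lists were not counted with the litter pair as a block, which raised the genotype calls over all probe sets.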

How the data were processed

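Kidney total RNA of 18 mice was measured on arrays. Each deposited value is a linear intensity signal of a probe set, for which the submitters' processing notes name GCOS and MAS5; the scaling target is not given in the sources used here. The signals were used without further normalization, as log2(signal + 29), with 29 from the rounded 20th percentile of the table, after leaving out 66 control probe sets and those with a mean below the 40th percentile (118.6). Median signals were 160.1 to 216.4. Arrays have no read depth, and their number limits the precision. Names come from the platform annotation, which gives 10833 probe sets 1 symbol, 396 several and 1193 none; related P450 genes can cross-hybridise.

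A linear model with 4 age-by-genotype groups and 1 sex term per age covered all 18 arrays (R 4.3.3, limma 3.58.1, lmFit and eBayes with trend, 12 residual degrees of freedom). Tests were two-sided and adjusted by Benjamini-Hochberg over 7464 probe sets. The fit was also run on simulated data with independent noise per array, which cannot show how it behaves when littermates correlate. Probe sets, the members' unit, were not merged into genes. Named were the members called, the brightest of each family, the 3 with the smallest p for genotype, and up to 3 genes per pathway list. Members and lists were chosen with earlier results of these data known. Litter pairs come from the labels. Within the 9 pairs, deviations from group means had correlations of 0.235 to 0.683, and 13 of 18 arrays correlated best with their littermate. Alternatives varied the pseudocount, minimum, normalization, litter block, probe sets per gene, samples fitted and arrays left out. Figures used matplotlib 3.10.9.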

Additional observations from a re-analysis of the deposited data

Results flagged for a closer look

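On the 7-day arrays labelled Aprt KO, Cyp4b1 read 369.1 in replicate 4, a mouse of pair 4, against 495 to 575 in the other 5, and Cyp2s1 read 675 in replicate 6 against 907.5 to 1005. Each lay farther from its neighbour than the 95% limit for 6 samples allows (gaps of 0.659 and 0.741 of the group's range). These were 2 of 34 sets of 6 arrays looked at, and chance alone gives about 1 in 20.

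The difference between males and females was larger at 1 month than at 7 days for Cyp4b1, by 1.98 on the log2 scale (limma adjusted p 2.71e-05), and for Cyp2e1, by 1.93 (limma adjusted p 0.00316). At 1 month the females are 1 litter. Without the 4 arrays with Aprt signal against the label the Cyp2e1 difference was 1.51 and not called (limma adjusted p 0.0835).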

How the results depend on the processing

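Of 33 named values, 18 kept their direction and their side of the threshold in all alternatives run (up to 39), and 0 reversed. Of the 24 called values 9 lost the call in 1 or more alternatives. With no call for genotype at 7 days, 1 member (Cyp2e1) was called with the litter pair as a fixed replicate block, as a random one and without the 4 arrays with Aprt signal against the label, and 0 to 1 with an array or pair left out. For genotype at 1 month both blocks called 2 members and leave-outs 0 to 1; for the genotype-by-age difference both called 2 and leave-outs 0 to 1. The count of 8 members for age in controls ranged from 5 (without the 1-month female control) to 11 with arrays or pairs left out, and in KO mice from 7 to 10. The 6 members called for sex at 1 month became 2 with the random block, 2 with a separate fit for each age, and 2 to 7 with arrays left out. The 2 for sex by age became 1 with the random block and 7 without the 1-month KO male of pair 9 (6 without both mice of pair 9). The blocks changed no other genotype call among the members. With the block the calls over all probe sets rose from 204 to 564 (fixed) and 592 (random) at 7 days, from 15 to 91 and 133 at 1 month, and from 28 to 102 and 163 for genotype by age, and with the random block fell from 217 to 31 for sex at 1 month and from 116 to 4 for sex by age. The cause of these changes was not tested.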
